A study of Rattus norvegicus with 20 samples.

Results

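The miR-188, miR-362, miR-500 and miR-532 cluster is a group of microRNA (miRNA) genes on the rat X chromosome. Its members were taken from the array by name: every row for rat miR-188, miR-362, miR-500, miR-501, miR-502, miR-532 or miR-660, in either arm. The array holds 10 such rows among its 677 rat miRNAs, none of them for miR-502 or miR-660. Agilent's software detected 4 of the 10 on at least 5 of the 20 arrays, and these are described as the detected members: miR-188-5p and miR-500-3p on 20 arrays, miR-362-3p on 19 and miR-532-5p on 16. The other 6 rows are treated as undetected: miR-532-3p was detected on 2 arrays, and miR-188-3p, miR-362-5p, miR-500-5p, miR-501-3p and miR-501-5p on 0 arrays.

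A miRNA is cut from a hairpin RNA whose 5p and 3p arms can each give a mature strand. Bases 2 to 8 of that strand, the seed, do most of the pairing with target messages. Genes on the X chromosome are largely silenced during meiotic prophase in males, in pachytene spermatocytes, and stay mostly repressed in the round spermatids that follow. Reports from mouse testis differ on whether X-linked miRNAs escape this silencing. In the RefSeq gene table the 5 hairpins of this cluster, Mir532, Mir188, Mir362, Mir501 and Mir500, lie in that order within 11.54 kb on the plus strand, all inside the span of Clcn5, a gene for a chloride transporter.

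The mature sequences of the 4 detected members are shown with that of miR-501-3p, which shares its seed with miR-500-3p. RefSeq's rat GRCr8 annotation, used for 9 of the 10 rows, puts them on the plus strand at chrX:17919595-17919615 for miR-188-5p, chrX:17926526-17926547 for miR-362-3p, chrX:17930695-17930716 for miR-500-3p, chrX:17919195-17919216 for miR-532-5p and chrX:17927239-17927261 for miR-501-3p. The array design itself predates that assembly. Capitals mark the seed.
miR-188-5p: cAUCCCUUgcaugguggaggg
miR-532-5p: cAUGCCUUgaguguaggacugu
miR-362-3p: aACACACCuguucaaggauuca
miR-500-3p: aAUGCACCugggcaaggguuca
miR-501-3p: aAUGCACCcgggcaaggauuugg

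The 9 sequences have 8 distinct seeds, and miR-500-3p and miR-501-3p are the pair that shares one. With positions counted from 1 at the 5′ end and the first-named miRNA's base first, miR-500-3p and miR-501-3p differ over the 22 bases compared at U9C, G18A, C21U and A22G. The miR-362-3p strand is identical to miR-500-3p at 17 of 22 positions, and its differences from it include C3U and A4G in the seed. The seeds of miR-188-5p and miR-532-5p differ at C4G alone. Outside the cluster, RefSeq lists miR-329-3p with the seed of miR-362-3p and miR-511-5p with that of miR-532-5p. Both were detected on 0 arrays.

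The study gave Sprague-Dawley male rats cyclophosphamide (CPA), an alkylating drug used against cancer, by gavage at 6 mg/kg on 6 days a week for 4 weeks, or saline (SAL) in its place. Germ cells were separated by sedimentation at unit gravity (STA-PUT), which yields enriched rather than pure fractions, and 100 ng of total RNA was labelled with Cy3 for each array. There were 5 arrays in each of 4 groups: CPA round spermatids, saline round spermatids, CPA pachytene spermatocytes and saline pachytene spermatocytes. Each array carries a rat number, and 2 CPA spermatocyte rats numbered 16 are told apart here as the earlier and the later. The labels give no age. Within a group, only the rat numbers mark the samples as separate animals, and the p-values hold for the spread among these arrays. Some numbers occur in both stages of a treatment: 15 and 16 in CPA rats, and 16, 25 and 28 in saline rats. The labels do not say whether these are the same rats, and the main tests treat all arrays as independent. The comparisons ask how the miRNAs differ between the cell stages and whether the drug changed them in either.

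Values are spot intensities, scaled to a common 75th percentile between arrays and averaged per probe, and are called scaled signal. Each miRNA is read from its own probe, so signals of different miRNAs are not set against each other. Between 181 and 281 miRNAs were detected per array, and replicate arrays of a group correlated at 0.954 to 0.994 over the tested miRNAs. The 217 miRNAs detected on every array of at least 1 group were tested on the log2 scale with limma, which included all 4 detected members. The arrays lie on 3 slides: both stages are on slides 1 and 2, and slide 3 holds 4 spermatid arrays only, 1 CPA and 3 saline. The germ cell marker list, miR-34b, miR-34c and miR-449a arms known from meiotic and haploid germ cells, was detected in all its 5 rows on every array. Of the marker lists of other cells, the vascular and blood lists did not overlap between the stages. Of 14 endothelial, smooth muscle and mesenchymal rows 7 were detected on all arrays, miR-143-3p and miR-145-5p among them, and 3 on none. Of 10 blood rows 3 were detected on all arrays, miR-142-3p, miR-150-3p and miR-223-3p. On no array were 4 detected, both miR-144 arms, miR-223-5p and miR-451-3p. The blood rows did not all differ alike, which their sum does not show. In spermatids miR-223-3p was higher, by a log2 difference of 1.98 in CPA and 2.18 in saline rats, and miR-150-3p was lower, at -0.40 and -0.63. The summed scaled signal of the mesenchymal and vascular list was 2004 to 3861 in CPA and 2425 to 3675 in saline spermatids, against 585 to 1016 in CPA and 718 to 1502 in saline spermatocytes, and the blood list read 170 to 234 in spermatids of both treatments together, against 98.7 to 137 in spermatocytes. The Sertoli and gonadal soma list overlapped, at 279 to 566 in CPA and 253 to 578 in saline spermatids, against 351.4 to 475.9 in CPA and 388 to 480 in saline spermatocytes. Its spermatid values were 253 to 285 on the 4 arrays of slide 3 and 476 to 578 on the other 6. The spermatogonial list read 620 to 670 in CPA and 592 to 678 in saline spermatids, against 609 to 821 in CPA and 703 to 792 in saline spermatocytes, without overlap in saline rats. That sum hides larger falls of dim rows in it. In spermatids miR-221-3p differed by -1.81 in CPA and -1.72 in saline rats on the log2 scale, and miR-222-3p by -2.02 and -1.93. The part of these other cell types in the stage differences was not tested.

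**Figure D1:**
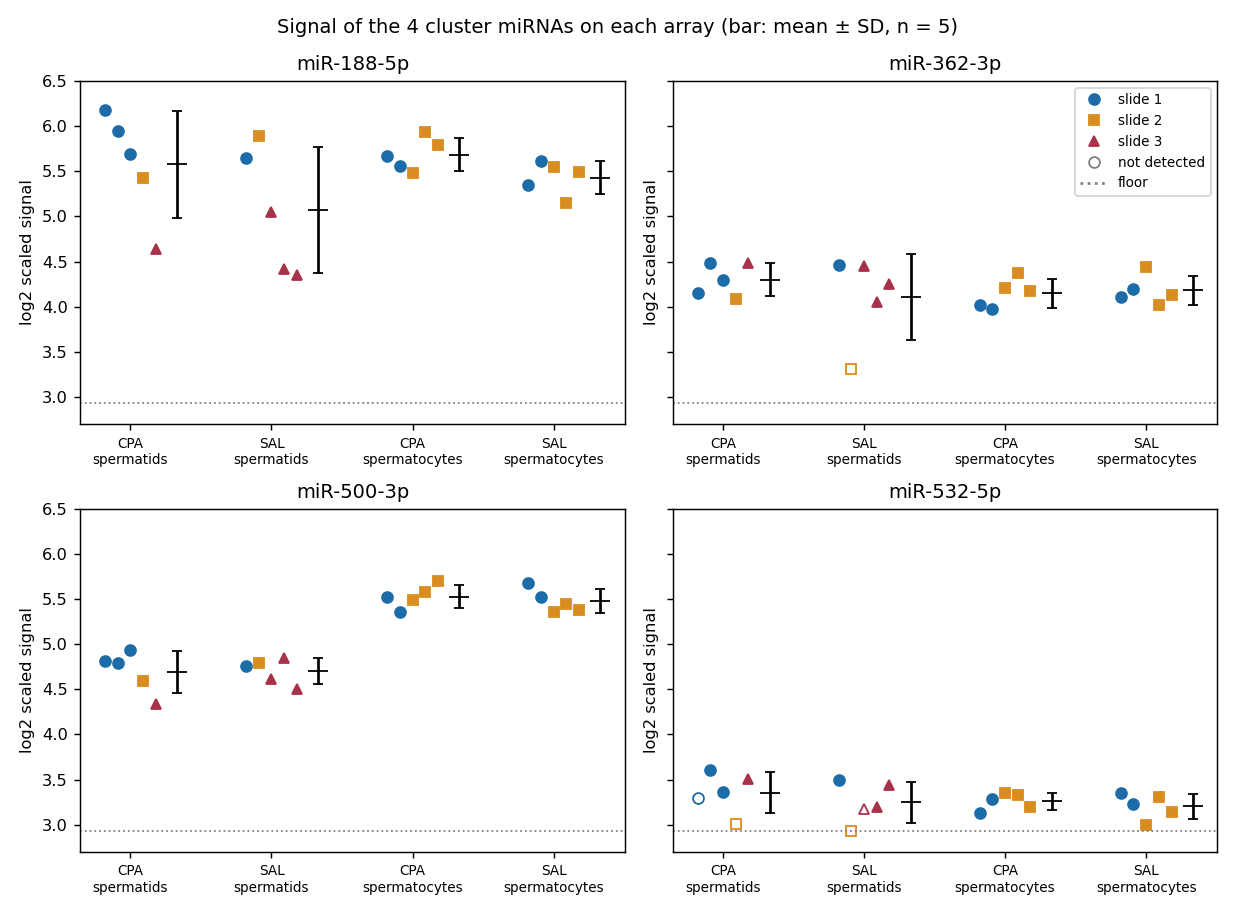
Scaled signal on a log2 axis of the 4 detected cluster miRNAs on each of the 20 arrays, by group, with slides 1 to 3 as circles, squares and triangles, open symbols where the miRNA was not detected, and bars for the mean ± SD of 5 arrays. For miR-500-3p all 10 spermatid arrays lie below all 10 spermatocyte arrays, and for miR-188-5p the 4 arrays of slide 3 lie below the other 16.

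The detected 3p strand of the miR-500 hairpin was lower in round spermatids than in pachytene spermatocytes in both treatments, and the other 3 members did not pass the test. miR-500-3p had scaled signals of 28.1, 27.6, 30.5, 24.2 and 20.2 in CPA round spermatids of rats 14, 15, 16, 25 and 26, against 45.9, 40.9, 45.0, 47.6 and 51.8 in CPA pachytene spermatocytes of rats 7, 15, the earlier 16, the later 16 and 29. In saline rats it read 27.1, 27.7, 24.5, 28.7 and 22.6 in round spermatids of rats 15, 16, 17, 25 and 28, against 51.1, 46.1, 40.8, 43.6 and 41.4 in pachytene spermatocytes of rats 13, 16, 25, 26 and 28. The stages did not overlap in either treatment: the brightest spermatid array, at 30.5, stayed below the dimmest spermatocyte array, at 40.8. Spermatids held 0.561 times the spermatocyte signal in CPA rats (95% interval 0.476 to 0.661) and 0.585 times in saline rats (0.497 to 0.689). On the log2 scale the differences were -0.83 ± 0.11 in CPA rats (SE, limma adjusted p = 2.29e-06) and -0.77 ± 0.11 in saline rats (adjusted p = 6.36e-06), with 5 arrays in each group.

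Many other miRNAs moved the same way. A miRNA is called here at a limma adjusted p under 0.05. Of the 217 tested miRNAs, 22.1% were called lower in spermatids in CPA rats and 22.6% in saline rats, and 1 of the 4 detected members was called in each. The groups did not overlap, with spermatids lower, for 19.4% of the tested miRNAs in CPA rats and 17.5% in saline rats. In order from the most negative difference, miR-500-3p stood in place 23 of 217 in CPA rats and in place 24 in saline rats. The median difference of the 4 detected members was -0.01 in CPA rats and -0.22 in saline rats, beside 0.05 and 0.02 over all tested miRNAs. Since miRNA totals per cell were not measured, fewer cells of a type and less RNA per cell cannot be told apart.

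A second probe for miR-500-3p gave the same direction. It read 9.74 to 17.3 in CPA and 12.4 to 16.9 in saline spermatids, against 19.0 to 26.2 in CPA and 20.2 to 26.1 in saline spermatocytes, a log2 difference of -0.65 in CPA rats and -0.61 in saline rats. Within slide 1 the differences by the first probe were -0.59 in CPA rats (limma adjusted p = 0.0107) and -0.84 in saline rats (0.0101), and within slide 2 they were -0.99 (0.000837) and -0.60 (0.00465). The saline value of slide 1 and both values of slide 2 rest on 1 spermatid array each, whose spread is assumed to be that of the other groups on the slide. The call was lost under another background correction, normexp with an offset of 50, where the difference was -0.34 (adjusted p = 0.593) in CPA rats and 0.19 (0.552) in saline rats, and with no offset, where it was -0.90 (0.147) and -0.06 (0.891). Relative to the median of all tested miRNAs under each, which in saline rats moved to 0.44 and 0.42, miR-500-3p stood at -0.30 in CPA and -0.26 in saline rats with the offset and at -0.70 and -0.48 without it. The SE of its difference was 0.27 with the offset and 0.41 without it, so these relative values are uncertain. Scaling to spike-in controls moved the median of all tested miRNAs to -0.70 in CPA rats and -1.51 in saline rats, and relative to those medians miR-500-3p stood at -0.97 and -0.88. Those controls had a geometric mean of 2723 to 3562 on the slide 3 arrays, against 858 to 1791 on the others. Slide 3 holds 3 saline spermatid arrays and 1 CPA one, and its part in these medians was not tested.

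The detected arm of miR-188, a miRNA known in rat neurons for repressing neuropilin-2, differed more between slide 3 and the other spermatid arrays than between stages. miR-188-5p had scaled signals of 72.6, 61.6, 51.8, 42.9 and 24.9 in CPA round spermatids (rats in the order above), against 50.7, 47.0, 44.6, 61.4 and 55.3 in CPA pachytene spermatocytes. In saline rats it read 49.9, 59.5, 33.1, 21.4 and 20.4 in round spermatids, against 40.9, 48.9, 46.9, 35.5 and 44.8 in pachytene spermatocytes. The stages overlapped in both treatments, and the spermatid groups were spread widely, with the brightest array 2.91 times the dimmest in CPA and 2.92 times in saline spermatids, against 1.38 times in each spermatocyte group. The log2 differences between stages were -0.11 ± 0.28 in CPA rats (SE, limma adjusted p = 0.751, 95% interval -0.69 to 0.47) and -0.36 ± 0.28 in saline rats (adjusted p = 0.289, interval -0.94 to 0.22).

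The 4 lowest miR-188-5p values of the study, 20.4 to 33.1, were those of slide 3, while the other 6 spermatid arrays read 42.9 to 72.6. Among the 10 spermatid arrays, with treatment in the model, slide 3 was lower than slides 1 and 2 by a log2 difference of -1.17 ± 0.20 (SE, limma adjusted p = 0.00641). That comparison called 20 of the 217 tested miRNAs lower (9.22%) and 5 higher, and miR-188-5p was the only detected member called. The others differed by -0.25 (miR-500-3p, adjusted p = 0.214), 0.31 (miR-362-3p, 0.457) and 0.11 (miR-532-5p, 0.718). This comparison was added after the values were seen. The arrays of slide 3 were also the only ones of their scan date, so slide, scan date and the samples on it cannot be told apart. On slide 3 a spike-in control, dmr_285, read 822 to 1303, against 557 to 746 on the other spermatid arrays, and the summed Sertoli and gonadal soma list (miR-202, miR-132 and miR-212 arms) read 253 to 285, against 476 to 578, with 1 of its 3 tested rows called lower. Whether either bears on miR-188-5p was not tested.

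With slide as a block in the model, the stage difference of miR-188-5p was 0.11 in CPA rats (limma adjusted p = 0.591) and 0.33 in saline rats (0.138), and without slide 3 it was 0.13 (0.473) and 0.34 (0.153). Within slide 1 the differences were 0.33 (0.168) in CPA rats and 0.16 (0.671) in saline rats, and within slide 2 they were -0.31 (0.302) and 0.50 (0.129), with 1 spermatid array behind all of these but the CPA value of slide 1. The sign in saline rats therefore turned when slide 3 was set aside. Weighting arrays by quality gave -0.63 in saline rats with adjusted p = 0.0130, a call that slide as a block did not give. Relative to the median of all tested miRNAs, the saline difference was -0.39 without scaling and -0.46 with spike-in scaling, both called before that median was subtracted.

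**Figure D2:**
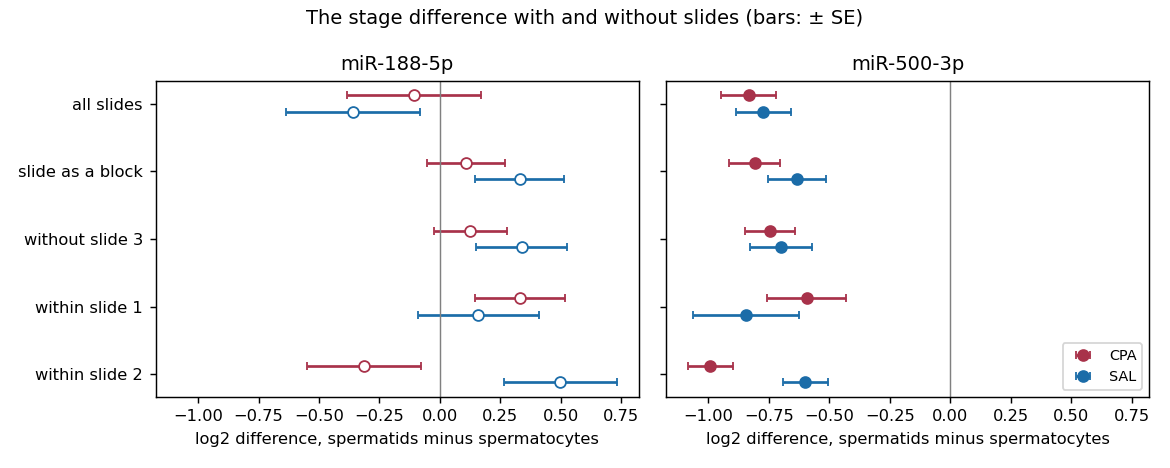
Log2 difference between round spermatids and pachytene spermatocytes, ± SE, for miR-188-5p and miR-500-3p in CPA and saline rats, with all slides, with slide as a block, without slide 3 and within slides 1 and 2; filled points have an adjusted p under 0.05. miR-500-3p stays between -0.99 and -0.59 in all 10 values, while miR-188-5p lies on both sides of 0.

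The detected arm of miR-362, which in human colon cancer cells represses the cell-cycle factor E2F1, did not pass the test between any groups. miR-362-3p read 17.7, 22.4, 19.7, 17.0 and 22.4 in CPA round spermatids, against 16.2, 15.7, 18.4, 20.8 and 18.1 in CPA pachytene spermatocytes. In saline rats it read 22.1, 9.92, 21.8, 16.6 and 19.1 in round spermatids, against 17.3, 18.3, 21.7, 16.2 and 17.5 in pachytene spermatocytes. The groups overlapped, and the saline spermatid array of rat 16, at 9.92, was the only one of the 20 on which the miRNA was not detected. That array needed the largest scale factor of the study, 1.94, against 0.487 to 1.57 on the others. The log2 differences between stages were 0.15 ± 0.17 in CPA rats (SE, limma adjusted p = 0.466, interval -0.20 to 0.51) and -0.07 ± 0.17 in saline rats (adjusted p = 0.757, interval -0.43 to 0.28). Within slide 2, where rat 16 is the only saline spermatid array, the saline difference was -0.89 (adjusted p = 0.0112), and within slide 1, where rat 15 is the only one, it was 0.31 (0.344).

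The detected arm of miR-532, which in human gastric cancer cells represses the transcription factor RUNX3, lay close to the detection limit. miR-532-5p read 9.82, 12.1, 10.3, 8.04 and 11.4 in CPA round spermatids, against 8.75, 9.74, 10.2, 10.1 and 9.18 in CPA pachytene spermatocytes. In saline rats it read 11.3, 4.08, 9.01, 9.14 and 10.8 in round spermatids, against 10.2, 9.35, 7.95, 9.87 and 8.82 in pachytene spermatocytes. It was detected on all 10 spermatocyte arrays but on 3 of 5 arrays in each spermatid group. The spermatid arrays without it, of CPA rats 14 and 25 and saline rats 16 and 17, had 181 to 210 miRNAs detected. The other spermatid arrays had 211 to 250 and the spermatocyte arrays 205 to 281, and whether this bears on its detection was not tested. The value of 4.08, again on the array of saline rat 16, was held at the floor of 7.64 for the test. The log2 differences were 0.10 ± 0.12 in CPA rats (SE, limma adjusted p = 0.519, interval -0.16 to 0.35) and 0.04 ± 0.12 in saline rats (adjusted p = 0.799, interval -0.21 to 0.30). Because both stages sit near the floor, these differences are compressed, and the second probe for miR-532-5p stayed below the floor on all 20 arrays.

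The 6 undetected rows had scaled signals at or near background. Over all 20 arrays and all their probes, 4 for miR-362-5p and 2 for each of the others, the signals ranged from -3.17 to 4.16 for miR-188-3p, from -8.29 to 2.65 for miR-362-5p, from -3.26 to -0.15 for miR-500-5p, from -2.44 to 4.61 for miR-501-3p, from -4.00 to -0.15 for miR-501-5p and from -2.55 to 7.46 for miR-532-3p. All lie below the floor of 7.64, so no fold is given. The 2 detections of miR-532-3p were on 1 saline spermatid and 1 saline spermatocyte array. miR-501-3p, whose sequence is close to that of miR-500-3p, was thus not detected on the arrays where miR-500-3p was read.

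No member passed the test for a CPA effect in either stage. In round spermatids limma called 0 of the 217 tested miRNAs (0.0%), and 6 had a p under 0.05 before adjustment. In pachytene spermatocytes it also called 0 (0.0%), and 2 had such a p. miR-188-5p averaged 5.58 ± 0.60 in CPA and 5.07 ± 0.70 in saline round spermatids on the log2 scale (SD, n = 5 each), a difference of 0.51 ± 0.28 (SE, limma adjusted p = 0.787, interval -0.07 to 1.08). That SE and interval pool the spread with the tighter spermatocyte groups (SD 0.18 in each) and are too narrow for the spermatid spread alone. The other 3 members differed in spermatids by 0.19 (miR-362-3p, interval -0.16 to 0.55), -0.01 (miR-500-3p, -0.24 to 0.23) and 0.11 (miR-532-5p, -0.15 to 0.36), with adjusted p between 0.787 and 0.985. Slide 3 holds 3 of the 5 saline spermatid arrays and 1 of the 5 CPA ones. With slide as a block the miR-188-5p difference was 0.03 (adjusted p = 0.968), and with array weights it was 0.92 (0.0417).

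In pachytene spermatocytes miR-188-5p averaged 5.69 ± 0.18 in CPA and 5.43 ± 0.18 in saline rats (SD, n = 5 each), a difference of 0.25 ± 0.28 (SE, limma adjusted p = 1.0, interval -0.32 to 0.83). That SE and interval pool the spread with the wider spermatid groups (SD 0.60 and 0.70). With only the 2 spermatocyte groups in the model the difference was 0.25 ± 0.11 (SE, limma adjusted p = 0.576). The differences were -0.03 for miR-362-3p (interval -0.39 to 0.36), 0.05 for miR-500-3p (-0.18 to 0.29) and 0.06 for miR-532-5p (-0.20 to 0.31), all with adjusted p = 1.0. The intervals of these 3 members lie within 0.39 of 0. The CPA effect in spermatids minus that in spermatocytes was 0.25 for miR-188-5p, 0.22 for miR-362-3p, -0.06 for miR-500-3p and 0.05 for miR-532-5p, each with adjusted p = 0.994, and limma called 0 of the 217 tested miRNAs for it (0.0%), with 0 below 0.05 before adjustment. For miR-500-3p the interval of that difference was -0.39 to 0.27, which is also the range allowed for a difference in its stage change between the treatments.

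**Figure D3:**
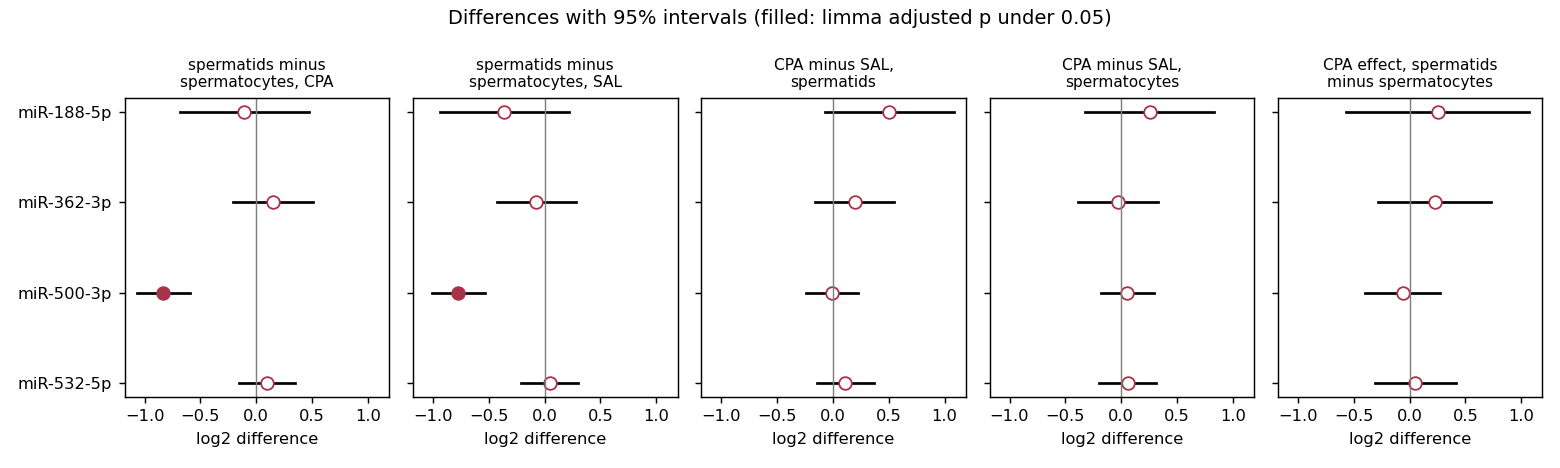
Log2 differences with 95% intervals for the 4 detected members in the 5 comparisons; filled points have a limma adjusted p under 0.05. Only the stage differences of miR-500-3p, -0.83 in CPA and -0.77 in saline rats, are filled.

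The other X-linked miRNAs on the array give the setting for these values. They were listed by name in 4 groups, the last a remainder of other loci, and of 72 rows 35 were tested. RefSeq matched 25 of 27 rows of the miR-506 family region and 30 of 31 in the remainder, and unmatched rows were kept. Of the 35 tested, in CPA rats 5 were called higher and 18 lower in spermatids, and 12 did not pass the test, with a median log2 difference of -0.35. In saline rats 3 were called higher and 17 lower, and 15 did not pass, with a median of -0.32. Over all tested miRNAs 32.7% were called higher and 22.1% lower in CPA rats, and 26.3% higher and 22.6% lower in saline rats. Scaling to spike-ins changes that split to 15 higher and 103 lower in CPA rats, where the main scaling gave 71 and 48, and to 2 higher and 181 lower in saline rats, where it gave 57 and 49. The spike-in controls read brighter on slide 3, which holds mostly saline spermatid arrays, and the part of that slide in this split was not tested.

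In the miR-506 family region, miRNAs found mainly in testis, 2 of 23 tested rows were called higher and 13 lower in CPA rats, and 0 higher and 12 lower in saline rats. The rows named in these lists are those with the highest mean signal, not those with the largest change. Here miR-741-3p differed by -0.48 in CPA and -0.47 in saline rats, miR-463-3p by -0.56 and -0.63 and miR-743b-3p by -0.26 and -0.32, all with limma adjusted p under 0.05, while miR-883-3p, at -0.14 and -0.19, did not pass. Larger falls, named after their values were seen, were those of miR-201-3p (-2.13 in both), miR-201-5p (-2.07 in CPA and -1.89 in saline rats) and miR-547-3p (-1.81 and -1.73). The 2 rows called higher in CPA rats were miR-883-5p at 0.29 and miR-742-5p at 0.26. Of the miR-322 cluster 3 rows were tested: miR-351-3p fell, by 1.65 in CPA and 1.34 in saline rats on the log2 scale, while miR-322-5p (-0.35 and -0.11) and miR-450a-5p (0.18 and 0.34) did not pass.

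The 2 tested rows of the miR-106a and miR-363 cluster differed in sign. miR-363-3p rose by 0.66 in CPA and 0.57 in saline rats, and miR-20b-5p, whose signal is uncertain because miR-20a-5p is near-identical, differed by -0.29 in CPA rats (limma adjusted p = 0.0553) and by -0.49 in saline rats (0.00236). Of 7 other X-linked rows tested, 2 were called higher and 4 lower in CPA rats, and 2 higher and 3 lower in saline rats. miR-223-3p, a miRNA of myeloid blood cells, was higher by 1.98 and 2.18, and miR-652-5p by 0.73 and 0.55. From the same hairpin miR-652-3p was lower, by -1.32 and -1.15, and miR-672-5p, at 0.21 and 0.36, did not pass. miR-222-3p (-2.02 and -1.93) and miR-221-3p (-1.81 and -1.72) fell further and are named after their values were seen. With 1 of 4 members called lower and 0 higher, the detected members are too few to set apart from these lists.

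**Figure D4:**
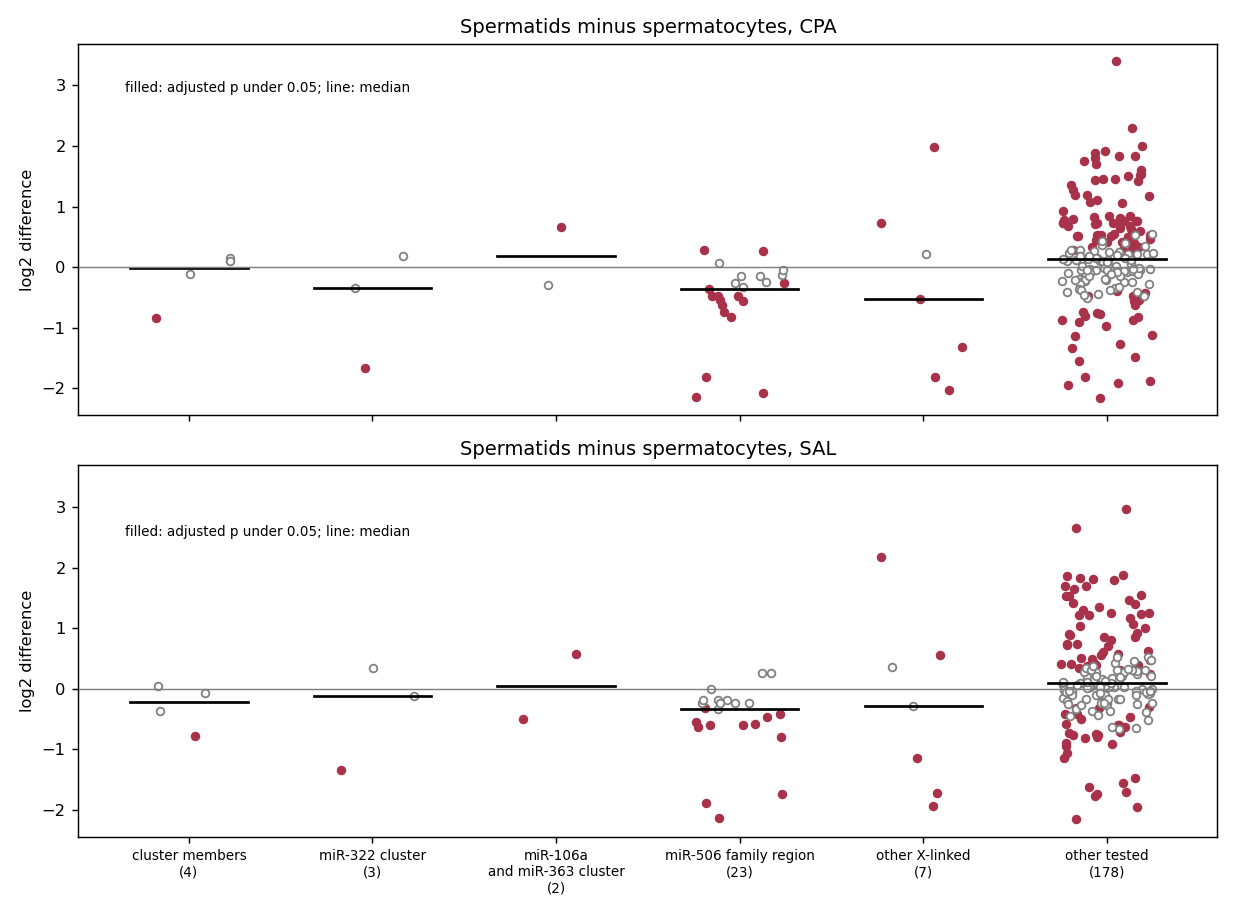
Log2 difference between round spermatids and pachytene spermatocytes for each tested miRNA in CPA rats (upper) and saline rats (lower), grouped as the 4 detected cluster members, 4 lists of other X-linked miRNAs and all other tested miRNAs, with a line at each group's median; filled points have an adjusted p under 0.05. The members' medians are -0.01 and -0.22, and 1 member is filled in each panel.

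The mean of the 4 members' log2 signals, each centred on its own mean, was set against every other tested miRNA over the 20 arrays. The members did not all move together: 4 of their 6 pairs had a negative correlation over these arrays, with a range of -0.19 to 0.58. That mean followed miR-188-5p (r = 0.759) and miR-500-3p (0.702), the members with the widest spread, more than miR-362-3p (0.293) and miR-532-5p (0.221). The 5 with the highest Pearson correlation were miR-134-5p (r = 0.848), miR-874-3p (0.834), miR-150-3p (0.829), miR-742-3p (0.791) and miR-328a-5p (0.769). All 5 had a lower mean in spermatids than in spermatocytes, by a log2 difference between -0.82 and -0.40. Of these, miR-874-3p, miR-150-3p and miR-328a-5p were also called lower on slide 3, by -1.33, -1.16 and -0.69, and miR-150-3p is also on the blood list. The 5 were picked by correlation over the same arrays. Their lower spermatid and slide 3 values thus partly follow from the pick and are not separate evidence. In the RefSeq table miR-742-3p is on the X chromosome, miR-134-5p on chromosome 6 and miR-874-3p on chromosome 17.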

How the data were processed

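The members and lists were chosen with earlier results of these data known. The deposited per-array files give spot intensity on a linear scale, already background-subtracted by Agilent Feature Extraction 11.5.1.1, per the file headers and the submitters' processing notes. A deposited series table gives log2 values whose normalization is not given in the sources used here. Of the members it matched miR-532-5p only, at r = 0.483 with the scanner values, and it was not used.

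Control and outlier spots (391 to 666 per array) were left out, and no spot was saturated. The scaling percentile, the 75th of each array, was taken over 2176 spots well above background on all arrays. Spots were averaged per probe, the brightest probe stood for a miRNA, and signals below 7.64 (a log2 of 2.93), the median over arrays of the lowest detected probe mean, were set to it as a floor. A floor from single spots, 12.2, would have covered every miR-532-5p value. One limma 3.58.1 model in R 4.3.3 held a mean for each of the 4 groups, with Benjamini-Hochberg adjustment over 217 miRNAs at a threshold of 0.05. The number of arrays limits the precision. The fit was checked on simulated data. Slides follow the codes in the labels. All 10 cluster rows are named, with the 5 miRNAs most like the members' mean and, per X-linked list, up to 4 by signal and up to 2 called against the list's majority. The planned normexp on mean signals used median signals, which the files hold. Alternatives are in the closing section. Figures were drawn with Python 3.11.15 and matplotlib 3.10.9.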

Additional observations from a re-analysis of the deposited data

How the results depend on the processing

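The arrays carried few members well above background, so the dim miRNA miR-532-5p can show only compressed changes, and 4 arrays on a slide of spermatids alone limit miR-188-5p. In what follows stage differences are spermatids minus spermatocytes on the log2 scale. Leaving out each of the 20 arrays in turn changed no member's call. miR-500-3p lay between -0.89 and -0.75 in CPA and between -0.81 and -0.72 in saline rats. miR-188-5p moved more: in CPA rats it was at 0.13 without spermatid rat 26 and -0.26 without rat 14, and in saline rats at -0.18 without rat 28 and -0.57 without rat 16. Its CPA effect in spermatids was 0.33 without saline rat 28 and 0.74 without CPA rat 26. miR-362-3p in saline rats was at 0.13 without spermatid rat 16 and otherwise as low as -0.16. The called miRNAs numbered 105 to 125 in CPA and 96 to 115 in saline rats. Rat number as a replicate block gave 120 calls in CPA and 113 in saline rats, with miR-500-3p at -0.83 and -0.77, and changed no member's call. In that block the CPA spermatid array of rat 16 was linked to neither CPA spermatocyte array of that number. Arrays of one number did not deviate together in every pair (4 pairs, correlations -0.20 to 0.15, none of them each other's best match).

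Slide 3 and scan date divide the arrays alike. In saline rats miR-188-5p was at 0.33 with slide as a block, 0.34 with scan date as a block, 0.34 without slide 3, 0.16 within slide 1 and 0.50 within slide 2, and at -0.63 and called with array weights. Within slide 1 miR-362-3p was at 0.31 in saline rats and 61 miRNAs were called there, a fit with fewer arrays. Within slide 2 miR-362-3p was at -0.17 in CPA rats and at -0.89 and called in saline rats, and miR-532-5p at -0.29 in CPA and -0.21 in saline rats. For CPA against saline in spermatids, 1 miRNA was called within slide 1, 9 within slide 2, where each treatment has 1 spermatid array, and 9 with array weights, among them miR-188-5p at 0.92. The difference of the CPA effects gave 8 calls within slide 2.

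Scaling to spike-ins, whose controls read brighter on slide 3 than on the other arrays, gave 183 calls in saline rats. It put miR-188-5p at -0.94 in CPA and -1.98 in saline rats and miR-362-3p at -1.56 in saline rats, all called. It put miR-532-5p at -0.93 in saline rats, called with the sign turned in the fit, and in CPA rats miR-362-3p at -0.68 and miR-532-5p at -0.50, not called. That scaling moved all miRNAs: relative to the median of all tested, the saline values were -0.46 for miR-188-5p and -0.05 for miR-362-3p. miR-532-5p, near the floor, gave 0.58, which decides nothing. Without scaling, miR-188-5p was at -0.83 in saline rats and called, miR-362-3p at -0.25 in CPA and -0.43 in saline rats, and miR-532-5p at -0.16 in CPA and -0.25 in saline rats. The percentile over all probes put miR-532-5p at -0.11 in CPA and -0.15 in saline rats, and quantile normalization put it at -0.20 in CPA rats. The total gene signal put miR-362-3p at -0.53 in saline rats and miR-532-5p at -0.48 in CPA and -0.43 in saline rats. Normexp with an offset gave 39 calls in CPA and 30 in saline rats. It put miR-500-3p at -0.34 in CPA rats and at 0.19 in saline rats, there with the sign turned although it stood at -0.26 relative to the median of all tested, and in saline rats miR-188-5p at 0.35, miR-362-3p at 0.55 and miR-532-5p at 0.62. Normexp with no offset, added after seeing the data, gave 49 calls in CPA and 32 in saline rats. There miR-500-3p was at -0.90 in CPA and -0.059 in saline rats, miR-362-3p at -0.34 in CPA and 0.59 in saline rats, miR-532-5p at -0.43 in CPA and 0.75 in saline rats, and miR-188-5p at 0.30 in saline rats. The cause was not tested. The remaining floor, probe, filter and 2-group settings changed no call of a member they could test. The higher floor left no spread for miR-532-5p, and keeping only miRNAs detected on all arrays left out miR-362-3p and miR-532-5p. The series table was not run for want of a usable member.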
